A study of Homo sapiens with 21 samples.

Results

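The S100 genes encode small calcium-binding proteins, and 10 of them were followed here among the 42339 genes counted in BT-549 cells, a triple-negative breast cancer (TNBC) line with wild-type BRCA1. The members S100A2, S100A3, S100A4, S100A6, S100A8, S100A9, S100A10, S100A11, S100A13 and S100A16 were found by matching the Ensembl identifiers of the count table to gene symbols, and all 10 were listed. Bulk RNA-seq of 21 cultures, 3 in each of 7 groups, was used to ask how these genes differed with growth as mammospheres, with targeting of the mucin MUC1-C and with silencing of MYC. BT-549 cells without an shRNA were grown as adherent 2D cells in serum, as 3D cells (mammospheres at passage 6 in low-attachment plates) or as passage 6 3D cells exposed to 0.75 umol/L GO-203, a peptide inhibitor of MUC1-C. Cells carrying a tetracycline-inducible MUC1shRNA were grown as passage 6 mammospheres with 0.1% DMSO (vehicle) or 500 ng/ml doxycycline (DOX), and cells carrying an inducible MYCshRNA as passage 8 mammospheres with the same vehicle or DOX. DOX exposure of the tet-MUC1shRNA cells was 10 days by the study's description of these data, and no exposure time was found for the sequenced tet-MYCshRNA or GO-203 cultures. Each inducible line carried a single shRNA in puromycin-selected cells. No group with a control shRNA was analysed here, so the action of DOX and the loss of the targeted mRNA cannot be told apart. Bulk counts likewise cannot tell fewer expressing cells from less RNA per cell, and since the labels do not say that the 3 cultures of a group were independent, p-values measure only the spread between them.

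S100 proteins bind calcium through paired EF-hand loops, change shape, and then dock onto partner proteins, mostly as dimers. Inside the cell they act on annexins, the cytoskeleton and proteolysis, and several are released to act on receptors such as TLR4 and RAGE. Most of the family lies in one cluster on the long arm of chromosome 1, next to the genes of the epidermal cornified envelope, and several members are studied as markers of invasive breast cancer. In the GENCODE release 44 annotation the 10 genes lay on chromosome 1 between positions 151982915 and 153631360 (GRCh38), in the order S100A10, S100A11, S100A9, S100A8, S100A6, S100A4, S100A3, S100A2, S100A16 and S100A13. S100A9 was on the plus strand and the others on the minus strand.

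Libraries held 38026597 to 99751717 counts, of which the 10 genes took between 0.033% in a 2D library and 0.0912% in a GO-203 library. The targeted mRNAs followed the labels: MUC1 was at 101, 83.1 and 86.6 counts scaled to library depth (CPM) with vehicle and at 19.7, 21.2 and 23.3 CPM with DOX in the tet-MUC1shRNA cells, and MYC went from 439, 418 and 386 CPM to 244, 279 and 297 CPM in the tet-MYCshRNA cells. MUC1 itself rose on MYC silencing by 1.25 on the log2 scale, and MYC rose on MUC1 silencing by 0.25. The hormone receptor genes were low, with ESR1 at no more than 1.48 CPM and PGR at no more than 0.0684 CPM in any library. ERBB2, listed beside them as a marker of a triple-negative line, was at 18.4 to 42 CPM over all libraries. The 5 epithelial markers EPCAM, CDH1, KRT8, KRT18 and KRT19 summed to 0.0403 to 2.72 CPM over all libraries although the labels call the source epithelial, with CDH1 at 0 in the 3D cells, and the 4 mesenchymal markers VIM, FN1, CDH2 and ZEB1 summed to 2151 to 15665 CPM.

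The sequences ahead of the start sites are shown for the pair that rose together on MUC1 silencing, S100A8 and S100A9, and for the neighbours S100A3 and S100A4, which went up and down together in the silencing comparisons. Each is the stretch of 250 bases before the start annotated by RefSeq, read 5′ to 3′ along the gene, with searched motifs in capitals.
S100A8 (GRCh38.p14, chr1:153391074-153391323, minus strand): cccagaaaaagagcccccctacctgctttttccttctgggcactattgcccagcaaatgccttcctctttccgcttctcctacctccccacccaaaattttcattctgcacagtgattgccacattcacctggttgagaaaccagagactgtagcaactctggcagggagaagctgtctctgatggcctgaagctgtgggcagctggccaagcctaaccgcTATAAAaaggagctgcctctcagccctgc
S100A9 (GRCh38.p14, chr1:153357604-153357853, plus strand): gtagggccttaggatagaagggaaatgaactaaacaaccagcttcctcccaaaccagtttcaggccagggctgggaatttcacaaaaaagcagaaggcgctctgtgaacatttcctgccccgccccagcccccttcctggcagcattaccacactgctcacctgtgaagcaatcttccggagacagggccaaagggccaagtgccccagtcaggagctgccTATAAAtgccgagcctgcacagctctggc
S100A3 (GRCh38.p14, chr1:153549259-153549508, minus strand): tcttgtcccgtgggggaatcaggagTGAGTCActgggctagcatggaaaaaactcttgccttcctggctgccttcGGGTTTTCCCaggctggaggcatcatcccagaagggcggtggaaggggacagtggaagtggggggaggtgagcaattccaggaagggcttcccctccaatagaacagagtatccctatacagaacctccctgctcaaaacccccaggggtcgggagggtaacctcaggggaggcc
S100A4 (GRCh38.p14, chr1:153545807-153546056, minus strand): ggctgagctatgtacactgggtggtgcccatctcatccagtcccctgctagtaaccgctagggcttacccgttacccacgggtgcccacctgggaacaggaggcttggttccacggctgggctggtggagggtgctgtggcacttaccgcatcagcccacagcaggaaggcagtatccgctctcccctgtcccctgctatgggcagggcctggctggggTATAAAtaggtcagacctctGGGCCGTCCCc
The motifs searched on both strands were the E-box CACGTG, which MYC binds, the AP-1 motif TGANTCA, the TATA box TATAAA and the NF-kB motif (GGGA, any bases at the next 4 positions, then CC). The capitals mark TATAAA beginning 29 bases before the start of both S100A8 and S100A9 and 31 bases before that of S100A4. In S100A3 they mark a match to the AP-1 motif at 225 bases and one to the NF-kB motif at 175 bases before the start, and in S100A4 a second run marks an NF-kB match. All 10 genes matched the RefSeq table, which gave 16 windows of 250 bases before and 50 after a start, some of them overlapping windows of 1 gene. Of these 16 windows, 5 held TATAAA, 5 the NF-kB motif, 2 the AP-1 motif and 0 the E-box. Among all 35116 promoter windows of that length, 11.5% held TATAAA, 25.6% the NF-kB motif, 7.71% the AP-1 motif and 7.26% the E-box. A match is a run of letters and not a measured binding site.

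S100A6, S100A10 and S100A11 gave 89.3% to 97.1% of the counts of the 10 genes in every library. Per kilobase of exon, so that genes of different length can be set side by side, S100A6 was the highest in each of the 7 groups, from 164 CPM per kilobase in DOX-treated tet-MUC1shRNA cells to 477 in DOX-treated tet-MYCshRNA cells. S100A10 was next in 6 groups, and in the DOX-treated tet-MUC1shRNA cells S100A11 stood above it, at 144 against 80.7 CPM per kilobase. S100A4 moved through the widest range of the abundant members, from 2.92 CPM per kilobase in 2D cells to 42.6 in DOX-treated tet-MYCshRNA cells. S100A2, S100A3 and S100A13 were between 0.422 and 4.99 CPM per kilobase in all groups. S100A8 and S100A9 were at no more than 1.35 CPM per kilobase in 6 groups and reached 3.17 and 4.75 in the DOX-treated tet-MUC1shRNA cells, and S100A16 stayed at or below 0.0995.

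**Figure D1:**
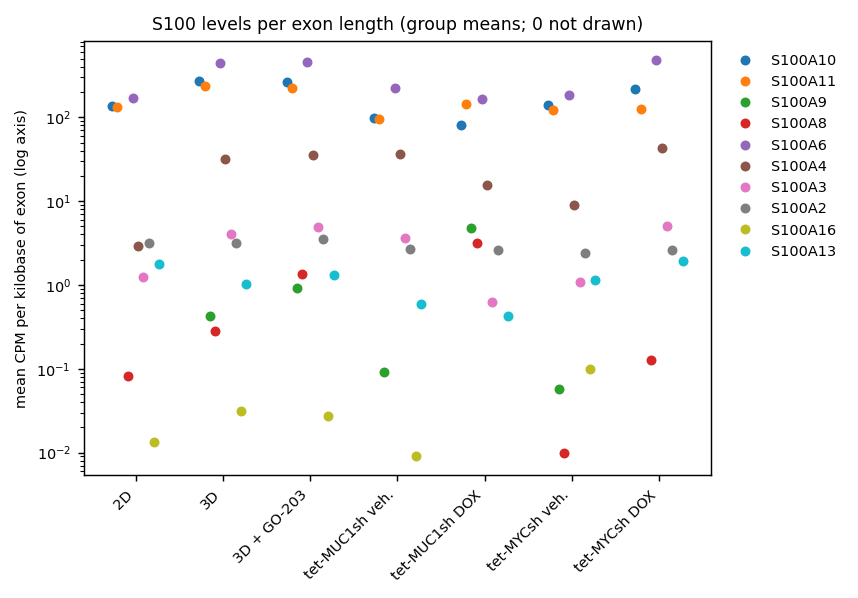
Mean level of each S100 gene in the 7 groups, as CPM per kilobase of exon on a log axis, with 3 cultures behind each point and groups whose mean was 0 left blank. S100A6, S100A10 and S100A11 sit between 80.7 and 477 in every group, and S100A8 and S100A9 come up among the middle genes in the DOX-treated tet-MUC1shRNA cells.

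In the untransduced 3D cells most S100 mRNAs tested were higher than in 2D cells. Of the 8 members that passed the filter on low counts, 7 passed the test (edgeR quasi-likelihood, Benjamini-Hochberg adjusted p below 0.1), against 63.7% of all genes tested. S100A4, S100A6, S100A3, S100A10, S100A11 and S100A9 were higher in 3D than in 2D cells, S100A13 was lower and S100A2 did not pass; 32% of all genes were higher and 31.7% lower. The median of the 8 log2 fold changes was 1.18, against -0.01 over all 19190 genes. S100A3, S100A4 and S100A9 also had a fitted log2 fold change above 1.5, where 16.2% of all genes passed that size in either direction. S100A9 was at 0 in all 2D libraries, so it was testable only through the 3D group and its fitted value is not a size. The cultures of the groups did not overlap for 7 of 8, against 64.3% of all genes. S100A8 and S100A16 were not tested. With vehicle-treated tet-MUC1shRNA mammospheres standing in for the 3D cells, 3 members were higher than in 2D cells (S100A3, S100A4 and S100A6) and 3 lower (S100A10, S100A11 and S100A13), 6 of 7 tested against 73.9% of all genes passing in that comparison. The 10 genes took 0.0379% to 0.0433% of counts, within the 0.033% to 0.0449% of the 2D libraries.

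On MUC1 silencing S100 genes passed in both directions. Of 9 members tested 7 passed, against 62.2% of all genes, with S100A8, S100A9 and S100A11 higher and S100A3, S100A4, S100A6 and S100A10 lower on DOX. The shares of all genes were 30.7% higher and 31.6% lower, near those of the members. The median log2 fold change of the 9 was -0.25, against 0.02 over all 19220 genes. S100A8, S100A9 and S100A3 also had a fitted absolute log2 fold change above 1.5, where 8.82% of all genes did. S100A8 and S100A9 were testable only through the DOX group, and with at least 10 counts asked of each library they dropped out and 5 members passed. The groups did not overlap for 7 of 9, against 62.8% of all genes. Beside these changes the 5 epithelial markers summed to 0.0522 to 0.141 CPM with vehicle and 2.38 to 2.72 CPM with DOX, and CDH1, KRT8 and KRT18 rose. These 3 had 0 to 4 counts in the vehicle libraries and were testable only through the DOX group, and EPCAM and KRT19 were not tested. Of the 4 mesenchymal markers CDH2 (log2 2.67) and VIM (log2 0.18) rose and ZEB1 (log2 -1.41) and FN1 (log2 -0.51) fell. The part of these markers in the S100 changes was not tested.

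GO-203 was followed by a rise of S100A8 and, less firmly, of S100A9. These were the 2 of 9 members tested that passed, against 24.1% of all genes, and 11.1% of all genes were higher and 12.9% lower. S100A8 had 6 to 20 counts and S100A9 10 to 16 in the 3D libraries, so both were testable only through the GO-203 group. With at least 10 counts asked of each library S100A8 was not tested. None of the 9 was lower by the edgeR quasi-likelihood test, nor did any show a decrease at an unadjusted p under 0.05 or by DESeq2. The median log2 fold change of the 9 was 0.21, against 0.02 over 18488 genes. S100A8 alone also had a log2 fold change above 1.5, against 0.757% of all genes, and the groups did not overlap for 3 of 9 (S100A8, S100A9 and S100A13), against 33.7% of all genes.

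MYC silencing was accompanied by higher S100A3, S100A4, S100A6, S100A10 and S100A13. These were 5 of the 7 members tested, against 58.5% of all genes passing in either direction and 30.3% passing as higher and 28.1% as lower. S100A3 and S100A4 also had a log2 fold change above 1.5, 2 of 7 against 10.5% of all genes, and the groups did not overlap for 5 of 7, against 59.7%. S100A2 and S100A11 did not pass, and S100A8, S100A9 and S100A16 were not tested. The median log2 fold change of the 7 was 0.73, against 0.01 over 19951 genes.

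**Figure D2:**
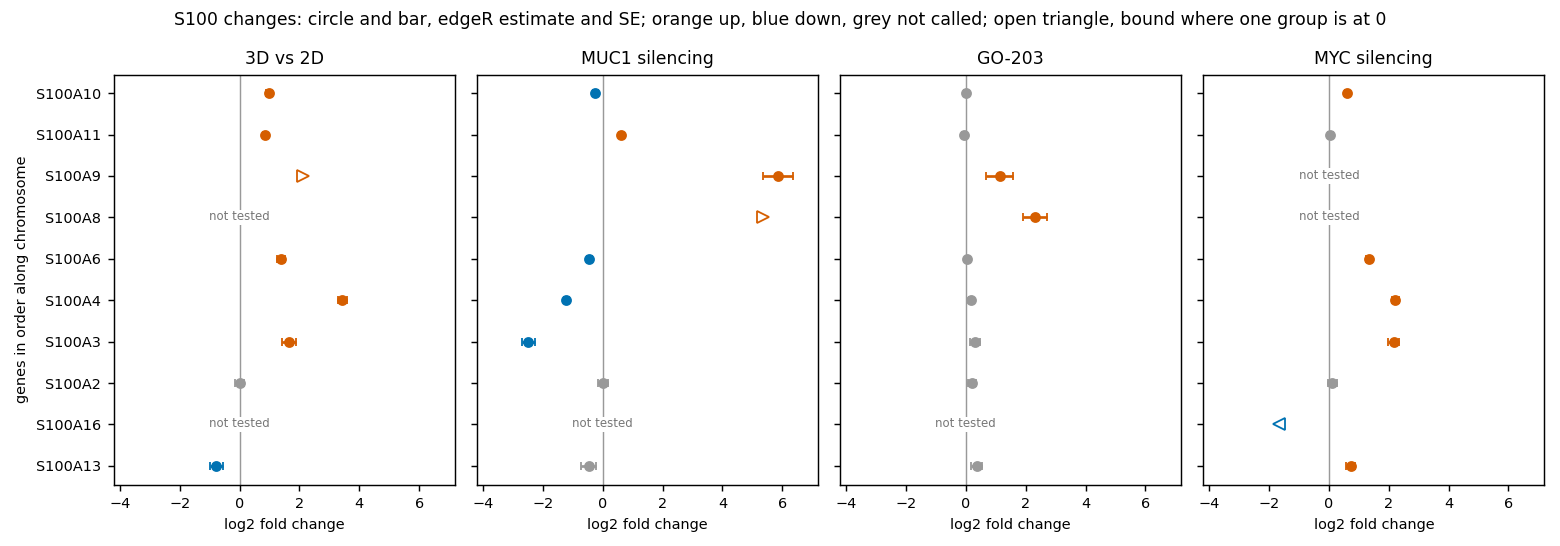
Log2 fold change of each S100 gene in the 4 comparisons, with genes from top to bottom in their order along chromosome 1; circles and bars give the edgeR estimate and its SE, and open triangles give the bound where one group was at 0. S100A3, S100A4, S100A6 and S100A10 sit right of 0 in 3D cells and on MYC silencing and left of 0 on MUC1 silencing, and S100A8 and S100A9 stand furthest right on MUC1 silencing and GO-203.

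S100A4 (ENSG00000196154.12, chr1:153543613-153550136) encodes a protein that binds nonmuscle myosin IIA and is known for promoting cell motility and metastasis. It was at 1.84, 3.01 and 3.45 CPM in the 2D cells and at 31.5, 26.7 and 33.3 CPM in the 3D cells. Every 3D culture was far above every 2D culture, a 10.8-fold difference (log2 3.44 ± 0.16 SE, adjusted p = 1.24e-11). On MUC1 silencing the vehicle cultures were at 35.4, 34.2 and 35.2 CPM and the DOX cultures at 14.1, 17.1 and 12.6 CPM. The groups did not overlap, and S100A4 was 2.34-fold lower with DOX (log2 -1.23 ± 0.08, adjusted p = 6.74e-11). On MYC silencing it went the other way, from 8.44, 7.98 and 9.24 CPM with vehicle to 33.9, 46.3 and 40.7 CPM with DOX. Again there was no overlap, with a 4.65-fold rise (log2 2.22 ± 0.12, adjusted p = 2.64e-07). The 2 vehicle groups thus started from different levels, the tet-MUC1shRNA vehicle cells near the 3D cells and the tet-MYCshRNA vehicle cells between the 2D and 3D cells. With GO-203 the cultures were at 34.2, 34.6 and 32.5 CPM and overlapped the 3D cells (log2 0.18, 95% interval 0.02 to 0.33, adjusted p = 0.103). That difference passed without 3D replicate 3 (log2 0.24, adjusted p = 0.035) or without GO-203 replicate 3 (log2 0.22, adjusted p = 0.0764), and with at least 10 counts asked of each library (adjusted p = 0.0883). Over the 21 libraries the genes among 8842 at a mean of 10 CPM or more whose log2 level followed S100A4 most closely were RPS6KA2 and SCD, both with Pearson r = 0.98, a description across libraries that share their groups.

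S100A3 (ENSG00000188015.10, chr1:153547329-153549258) encodes a cysteine-rich, zinc-binding member best known from the hair cuticle, and its gene lies within the span of S100A4 on the same strand with no shared exon bases. The 2D cells were at 0.754, 1.06 and 1.37 CPM and the 3D cells at 3.78, 2.79 and 3.59 CPM. All 3D cultures were above all 2D cultures, a 3.15-fold difference (log2 1.65 ± 0.23, adjusted p = 1.18e-05). On MUC1 silencing S100A3 fell from 2.92, 2.96 and 3.17 CPM to 0.584, 0.613 and 0.363 CPM, and on MYC silencing it rose from 0.865, 1.08 and 0.784 CPM to 4.46, 3.68 and 4.44 CPM. Neither pair of groups overlapped. The decrease was 5.58-fold (log2 -2.48 ± 0.23, adjusted p = 9.78e-09) and the increase 4.49-fold (log2 2.17 ± 0.19, adjusted p = 5.21e-06). GO-203 cultures were at 4.93, 3.88 and 3.62 CPM, overlapping the 3D cells (log2 0.32, 95% interval -0.04 to 0.67, adjusted p = 0.222). The genes most like it over the 21 libraries were TTC39C (r = 0.96) and FADS1 (r = 0.95).

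S100A6 (ENSG00000197956.10, chr1:153534599-153536244), or calcyclin, binds the ubiquitin-ligase adaptor CACYBP and several annexins, and was the most abundant member. It was at 116, 190 and 188 CPM in the 2D cells and at 455, 394 and 458 CPM in the 3D cells. The groups were well apart, with a 2.63-fold rise (log2 1.40 ± 0.13, adjusted p = 1.2e-07). MUC1 silencing took it from 243, 201 and 215 CPM to 171, 174 and 132 CPM, and MYC silencing from 202, 180 and 163 CPM to 416, 485 and 488 CPM. The groups of each pair did not overlap. The decrease on MUC1 silencing was 1.36-fold (log2 -0.44 ± 0.07, adjusted p = 3.31e-05) and the increase on MYC silencing 2.51-fold (log2 1.33 ± 0.09, adjusted p = 9.18e-07). With GO-203 S100A6 was at 458, 434 and 432 CPM, inside the range of the 3D cells (log2 0.05, 95% interval -0.07 to 0.17). Both vehicle groups of the inducible lines lay below the 3D cells, with no overlap. The closest genes over the 21 libraries were ANKS1B (r = 0.94) and ZFP36L2 (r = 0.92).

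**Figure D3:**
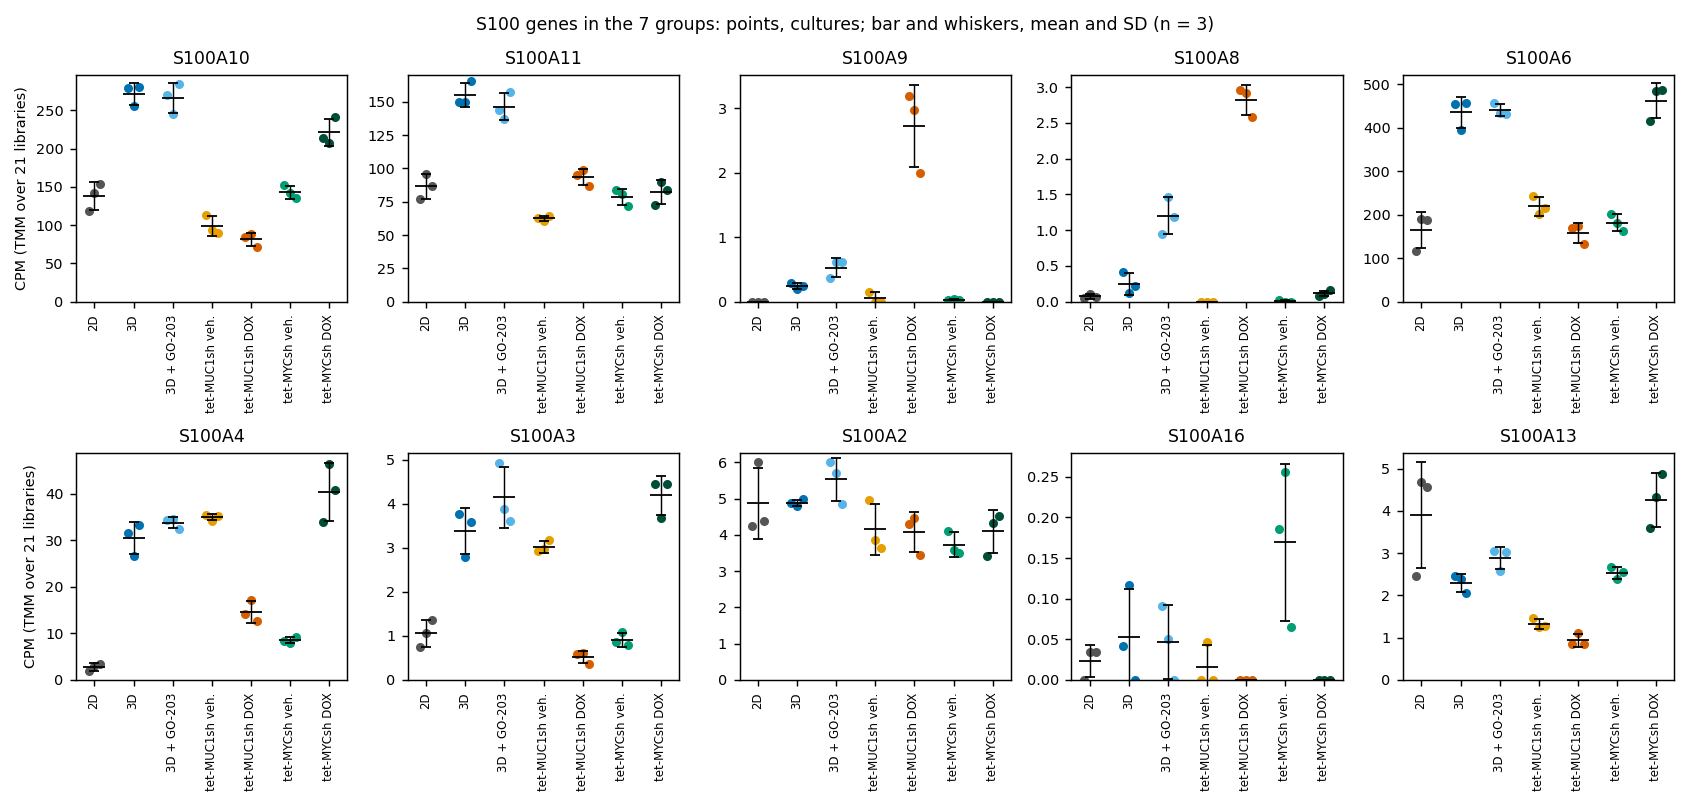
CPM of each S100 gene in every culture of the 7 groups on linear axes that start at 0, with the mean and SD of 3 cultures; panels follow the order of the genes along chromosome 1. The DOX-treated tet-MUC1shRNA cultures are the highest for S100A8 and S100A9, and the DOX-treated tet-MYCshRNA cultures reach the level of the 3D cells for S100A3, S100A4 and S100A6.

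S100A10 (ENSG00000197747.9, chr1:151982915-151993859), also called p11, forms a heterotetramer with annexin A2 that presents plasminogen and tethers channels at the plasma membrane. It was at 119, 143 and 154 CPM in 2D cells and at 279, 255 and 280 CPM in 3D cells, without overlap. The rise was 1.95-fold (log2 0.96 ± 0.08, adjusted p = 2.29e-08). This direction depended on which mammospheres were set against the 2D cells, since the vehicle-treated tet-MUC1shRNA mammospheres, at 114, 93.3 and 89.4 CPM, were lower than the 2D cells (log2 -0.49, adjusted p = 0.000188). The DOX-treated tet-MUC1shRNA cultures were at 84.1, 88.9 and 71.9 CPM. Scaled within this comparison alone, the vehicle and DOX groups overlapped. On the scale over 21 libraries the highest DOX culture lay just below the lowest vehicle culture. That small decrease passed (log2 -0.25 ± 0.08, adjusted p = 0.00749), but not by DESeq2 (adjusted p = 0.117) nor with library size alone as the scale (log2 -0.08, adjusted p = 0.315), a scale on which the median of all genes moved from 0.02 to 0.19. It was -0.14 without vehicle replicate 1 (adjusted p = 0.0479). On MYC silencing S100A10 went from 152, 142 and 135 CPM to 214, 208 and 242 CPM, with every DOX culture above every vehicle culture. That was a 1.52-fold rise (log2 0.61 ± 0.07, adjusted p = 5.81e-05), and with GO-203 the estimate was 0.00 on the log2 scale (95% interval -0.12 to 0.12). ANXA2, the partner gene, was lower in 3D than in 2D cells (log2 -0.27 ± 0.06, adjusted p = 0.00144) and lower on MUC1 silencing (log2 -0.34 ± 0.05, adjusted p = 1.73e-06). It was higher with GO-203 (log2 0.31 ± 0.05, adjusted p = 3.61e-05) and on MYC silencing (log2 0.39 ± 0.07, adjusted p = 0.00112).

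S100A11 (ENSG00000163191.6, chr1:152032506-152047907) binds annexin A1 and takes part in membrane repair and keratinocyte growth control. It was at 76.7, 95.6 and 86.9 CPM in 2D cells and at 150, 150 and 165 CPM in 3D cells. The groups did not overlap and the difference was 1.79-fold (log2 0.84 ± 0.07, adjusted p = 5.36e-08), but the vehicle-treated tet-MUC1shRNA mammospheres, at 63, 60.7 and 64.4 CPM, were below the 2D cells (log2 -0.47, adjusted p = 2.43e-05). On MUC1 silencing S100A11 rose to 95.4, 98.5 and 86.7 CPM, every DOX culture above every vehicle culture. The rise was 1.52-fold (log2 0.60 ± 0.05, adjusted p = 2.36e-09). MYC silencing left the groups overlapping, at 83.4, 80.9 and 71.6 CPM with vehicle and 72.8, 90.1 and 83.7 CPM with DOX (log2 0.04, 95% interval -0.16 to 0.24). GO-203 cultures also overlapped the 3D cells (log2 -0.05, 95% interval -0.18 to 0.07). ANXA1 was the gene most like S100A11 over the 21 libraries (r = 0.92) and rose in 3D cells (log2 0.40 ± 0.06, adjusted p = 1.59e-05) and on MUC1 silencing (log2 0.67 ± 0.04, adjusted p = 1.32e-11), while on MYC silencing its estimate was 0.03 ± 0.07 (adjusted p = 0.709). The annotation lists 8 pseudogenes named after S100A11, and the treatment of reads that fit more than one place was not given in the sources used here, so part of its signal is uncertain.

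S100A8 (ENSG00000143546.10, chr1:153390032-153391073) and S100A9 (ENSG00000163220.11, chr1:153357854-153361023) encode the subunits of calprotectin, a metal-sequestering heterodimer that is abundant in neutrophils and induced in stressed keratinocytes, and a ligand of TLR4 and RAGE. On MUC1 silencing S100A8 had 0, 0 and 0 counts with vehicle and 167, 210 and 114 counts with DOX. S100A9 had 6, 0 and 0 counts with vehicle and 180, 214 and 88 counts with DOX. All DOX cultures were thus above all vehicle cultures for both genes. Taking 3 counts per library as the limit that a count of 0 allows, S100A8 was at least 40.7-fold higher with DOX (adjusted p = 2.12e-11), or at least 20.4-fold with 6 counts as that limit, since most low counts were even. S100A9 was 61.4-fold higher by summed counts (95% interval 28 to 168, counting error only), with an edgeR log2 estimate of 5.84 ± 0.50 (adjusted p = 2.78e-09). The estimate was 10.19 without vehicle replicate 1, which held the only 6 counts of its group.

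The same pair rose with GO-203, to a lesser level, and both genes were testable only through the GO-203 group. S100A8 was at 20, 6 and 14 counts in the 3D cells and 42, 58 and 70 counts with GO-203, with no overlap. It was 4.89-fold higher by summed counts (95% interval 3.45 to 7.08), and edgeR gave log2 2.31 ± 0.40 (adjusted p = 0.000255). S100A9 was at 14, 10 and 16 counts in the 3D cells and 16, 24 and 36 counts with GO-203. In CPM the groups were 0.195 to 0.291 and 0.362 to 0.611, and did not overlap, with a log2 difference of 1.14 ± 0.45 (adjusted p = 0.0835). That call was lost without any one of 5 libraries, namely each 3D replicate and GO-203 replicates 2 and 3 (adjusted p between 0.13 and 0.283), and DESeq2 gave no adjusted p for it. The effect of GO-203 minus that of MUC1 silencing was fitted at -4.70 ± 0.76 on the log2 scale for S100A9 (adjusted p = 1.45e-05), and at -9.02 without tet-MUC1shRNA vehicle replicate 1. These fitted values are not sizes, since that vehicle group was near 0. For S100A8 the difference of effects also passed (adjusted p = 1.71e-06).

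In the other comparisons the pair was near the lower limit of detection. S100A9 had 0 counts in every 2D culture against 14, 10 and 16 in the 3D cells, at least 4.32-fold more (2.16-fold with the limit of 6 counts, adjusted p = 1.21e-04). S100A8 had 2, 6 and 4 counts in the 2D cells against 20, 6 and 14 in the 3D cells, 3.28-fold by summed counts (95% interval 1.68 to 6.86), and was not tested there because it did not pass the filter. With all genes kept it had an adjusted p of 0.0597, and 0.01 in a fit of all 21 libraries. In tet-MYCshRNA cells S100A8 had 2, 0 and 0 counts with vehicle and 4, 6 and 10 with DOX. S100A9 had 2, 4 and 2 counts with vehicle and 0 in every DOX culture. Neither was tested there, and with all genes kept the adjusted p was 0.057 for S100A8 and 0.211 for S100A9, while a fit of all 21 libraries gave 0.000736 and 0.0418.

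The levels of S100A8 and S100A9 ran together over the 21 libraries (Pearson r = 0.92 on log2 CPM), a description over libraries that share their groups, with the 3 DOX-treated tet-MUC1shRNA cultures highest for both genes. Of 29 values above 0 for the pair 28 were even, and 68.5% to 72.8% of all genes with 1 to 10 counts in a library had an even count, so small counts may stand for fewer read pairs than their number and the counting intervals may be too narrow. The gene most like both was AFF1, with r = 0.88 for S100A8 (after FIG4, also 0.88) and 0.95 for S100A9. Since leukocytes also carry calprotectin, 11 leukocyte markers were counted: they summed to 1.1 to 1.81 CPM in the tet-MUC1shRNA vehicle cultures and 1.56 to 2.04 CPM in the DOX cultures. Their defining marker PTPRC was at 0.0197 to 0.157 CPM with vehicle and 0.0454 to 0.142 CPM with DOX, and MPO was at 0 in all 6. In the GO-203 cultures the sum was 1.07 to 1.22 CPM, against 0.775 to 1.21 CPM in the 3D cells. CSF3R, a neutrophil receptor, was at 0.249, 0.429 and 0.155 CPM in the 3D cells and at 0.52, 0.583 and 0.442 CPM with GO-203, higher without overlap but not past the test (log2 0.92, adjusted p = 0.19). MPO and LYZ were at 0 in all 6 cultures of that comparison. Of the 11 markers 3 were tested on MUC1 silencing and 1, CSF1R, rose (log2 1.38, adjusted p = 0.0176), where 30.7% of all genes rose. CSF1R had 7 to 21 counts with vehicle and 30 to 51 with DOX, so it was testable only through the DOX group. CD14, the other marker tested with GO-203, was at log2 -0.89 (adjusted p = 0.229). The part of such cells in the S100A8 and S100A9 values was not tested.

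S100A13 (ENSG00000189171.15, chr1:153618787-153631360) takes part in the unconventional export of FGF1 and IL1A. It was at 2.46, 4.69 and 4.56 CPM in 2D cells and at 2.45, 2.4 and 2.06 CPM in 3D cells. The lowest 2D culture lay just above the highest 3D culture, and the decrease was 1.71-fold (log2 -0.78 ± 0.22, adjusted p = 0.00647). On MYC silencing S100A13 rose from 2.67, 2.39 and 2.56 CPM to 3.59, 4.34 and 4.87 CPM, without overlap. The rise was 1.66-fold (log2 0.73 ± 0.16, adjusted p = 0.00276). On MUC1 silencing it was at 1.46, 1.25 and 1.28 CPM with vehicle and 0.849, 1.11 and 0.84 CPM with DOX. Those groups did not overlap, but the difference did not pass (log2 -0.47, 95% interval -0.99 to 0.05, adjusted p = 0.116), although it did without DOX replicate 2 (log2 -0.61, adjusted p = 0.0841) and in a fit of all 21 libraries (log2 -0.49, adjusted p = 0.0857). With GO-203 the log2 difference was 0.36 (95% interval -0.02 to 0.74, adjusted p = 0.189). Exon bases of S100A13 overlap a gene on the same strand for 24.2% and S100A1 on the opposite strand for 10.6%, so reads from these genes may be mixed. FGF1, the cargo gene, rose in 3D cells (log2 0.85 ± 0.18) and on MUC1 silencing (log2 1.10 ± 0.11) and fell with GO-203 (log2 -0.78 ± 0.18) and on MYC silencing (log2 -1.04 ± 0.14), with adjusted p of 0.000597, 2.52e-08, 0.00324 and 0.000159. In the comparisons where both passed, 3D against 2D and MYC silencing, S100A13 and FGF1 moved in opposite directions.

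S100A2 (ENSG00000196754.13, chr1:153561108-153567890), a nuclear member that binds p53 and is often lost in breast cancer, differed least. Its group means ran from 3.73 CPM in tet-MYCshRNA vehicle cells to 5.52 CPM with GO-203, a ratio of 1.48, and neighbouring groups in that order overlapped throughout. The 4 log2 fold changes were between -0.00 and 0.21, with 95% intervals of -0.33 to 0.33 in 3D cells, -0.31 to 0.32 on MUC1 silencing, -0.08 to 0.49 with GO-203 and -0.22 to 0.45 on MYC silencing. Its most similar genes were RN7SKP203 (r = 0.81) and MGST3 (r = 0.77).

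S100A16 (ENSG00000188643.11, chr1:153606886-153613145), a member with a wide tissue distribution, was barely detected. It had no more than 6 counts in any library of 6 groups and 14, 26 and 4 counts in the tet-MYCshRNA vehicle cells. The DOX-treated tet-MYCshRNA cells had 0 counts in each culture, at least 3.18-fold fewer, or 1.59-fold with the limit of 6 counts. The gene passed the filter in none of the 4 comparisons, so this difference has no main test, but with all genes kept edgeR gave an adjusted p of 8.09e-05. The library with 4 counts was vehicle replicate 3, and without it the adjusted p was 0.00404.

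The silencings of MUC1 and MYC moved the same genes apart. The difference of the 2 effects, tested over their 12 libraries, passed for 8 of 9 members, against 52.9% of all genes. The effect of MUC1 silencing was lower than that of MYC silencing for S100A3 (log2 difference -4.66 ± 0.29, adjusted p = 3.23e-10), S100A4 (-3.46 ± 0.17, adjusted p = 1.54e-11) and S100A6 (-1.79 ± 0.15, adjusted p = 1.26e-08). It was also lower for S100A13 (-1.21 ± 0.26, adjusted p = 7.16e-04) and S100A10 (-0.87 ± 0.13, adjusted p = 1.95e-05). It was higher for S100A11 (0.54 ± 0.11, adjusted p = 6.14e-04), S100A9 (adjusted p = 2.46e-04) and S100A8 (adjusted p = 0.0126), the last of which did not pass without tet-MYCshRNA vehicle replicate 1. Among all genes 26% were higher and 26.9% lower, and 16.2% differed by more than 1.5 in absolute log2. S100A3, S100A4 and S100A6 were past that size, as were the fitted values of S100A8 and S100A9, which are not sizes because groups were at or near 0. S100A3, S100A4, S100A6 and S100A10 passed in both silencings with opposite signs, 4 of the 7 members tested in both, against 18.8% of all genes tested in both. By the labels the lines differ in passage, and they differ in their vehicle levels as well as in the shRNA, and the part of these in the difference was not tested.

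**Figure D4:**
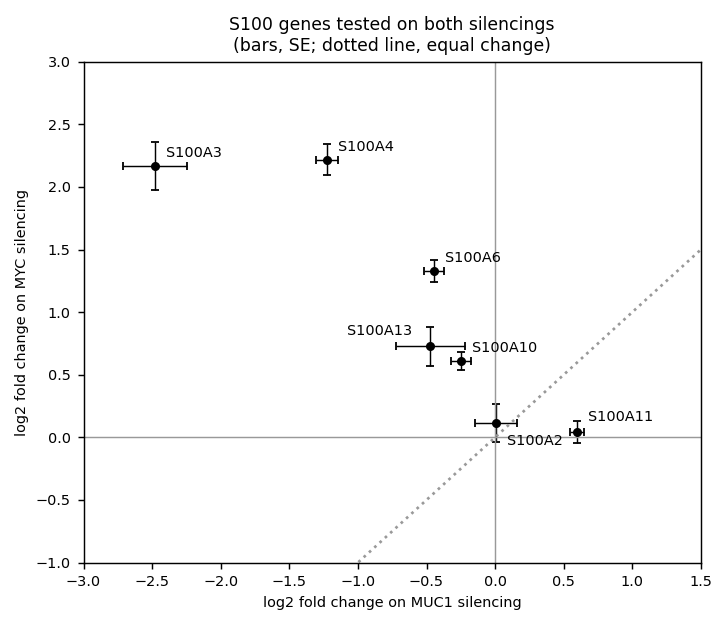
Log2 fold change on MUC1 silencing (x axis) against that on MYC silencing (y axis) for the 7 S100 genes tested in both, with SE bars; the dotted line marks equal change. S100A3, S100A4, S100A6, S100A10 and S100A13 lie left of and above 0, S100A11 lies right of 0 at a y value of 0.04, and S100A2 is near the origin.

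GO-203 and MUC1 silencing were compared in the same way, as both target MUC1-C. The peptide was given to untransduced cells and DOX to the tet-MUC1shRNA line, and several members started from different levels in these cells. The part of line, DOX and starting level in the result was not tested. The difference of effects passed for 8 of 9 members, against 44.9% of all genes, 24.1% being higher and 20.8% lower, and 8.59% differing by more than 1.5 in absolute log2. S100A3 was past that size, as were the fitted values of S100A8 and S100A9, which are not sizes. S100A3 (GO-203 minus silencing, log2 2.79 ± 0.28, adjusted p = 6.06e-09), S100A4 (1.40 ± 0.12, adjusted p = 3.96e-10), S100A13 (0.83 ± 0.28, adjusted p = 0.0219) and S100A6 (0.49 ± 0.11, adjusted p = 5.81e-04) had a higher effect with the peptide than with silencing. S100A11 had a lower one (-0.66 ± 0.08, adjusted p = 1.73e-07). S100A10 passed narrowly (0.25 ± 0.10, adjusted p = 0.0588) and did not pass by DESeq2 (adjusted p = 0.103) or without tet-MUC1shRNA vehicle replicate 1 (0.14, adjusted p = 0.284). MUC1 mRNA was higher with GO-203 than in the 3D cells (log2 0.33 ± 0.07, adjusted p = 0.00191), where the shRNA lowered it.

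With 3D cells against 2D cells and MUC1 silencing side by side, S100A3, S100A4, S100A6 and S100A10 rose in the first and fell in the second. These are 4 of the 8 members tested in both, and 28.9% of all genes tested in both passed with opposite signs. S100A9 and S100A11 rose in both. When the vehicle-treated tet-MUC1shRNA mammospheres took the place of the 3D cells against 2D cells, S100A4 (log2 3.63), S100A3 (log2 1.49) and S100A6 (log2 0.41, adjusted p = 0.0109) were still higher and S100A13 (log2 -1.57) still lower, while S100A10 (log2 -0.49) and S100A11 (log2 -0.47) turned and were lower than in 2D cells.

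Among the other S100 genes, 8 of 10 were listed in the count table and their summed level was 0.266 to 1.34 CPM. On MUC1 silencing and on MYC silencing 2 of the 8 were tested. S100A5, a neighbour of S100A6, rose on MUC1 silencing (log2 1.61 ± 0.48, adjusted p = 0.00687) and on MYC silencing (log2 2.46 ± 0.54, adjusted p = 0.00319). S100P fell on MUC1 silencing (log2 -2.22 ± 0.55, adjusted p = 0.00166), and S100A1 rose on MYC silencing (log2 1.29 ± 0.48, adjusted p = 0.0462), where the strand setting of the counting leaves reads shared with S100A13 uncertain. S100A5 had 2 to 13 counts in the vehicle libraries and S100A1 8 to 18 in those of the tet-MYCshRNA cells. S100P had 2 to 14 in the tet-MUC1shRNA DOX libraries. Each of these genes was thus testable only through the group where it was higher.

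Of 7 genes for receptors and surface binding partners of released S100 proteins, 4 rose and 2 fell of the 7 tested on MUC1 silencing, against 62.2% of all genes passing, and 2 rose and 2 fell of the 6 tested in 3D cells, against 63.7%. TLR4, a receptor for calprotectin and 1 of those counted as risen in both, had 0 to 6 counts in 2D libraries against 28 to 36 in 3D, and 3 to 5 with tet-MUC1shRNA vehicle against 11 to 41 with DOX. It was testable only through the higher group (adjusted p = 0.000301 and 0.000965), and its fitted folds are not sizes. CD36, a scavenger receptor, rose on MUC1 silencing (log2 3.15 ± 0.29) and on MYC silencing (log2 1.72 ± 0.24). On MUC1 silencing CD36 had 7 to 44 counts with vehicle against 204 to 356 with DOX, and was testable only through the DOX group. ALCAM, an adhesion molecule of the immunoglobulin family, was lower in 3D cells (log2 -2.28 ± 0.05) and higher on MUC1 silencing (log2 1.27 ± 0.05). AGER, which encodes RAGE, fell on MYC silencing (log2 -1.60 ± 0.41, adjusted p = 0.00775). It had 10 to 14 counts with DOX there and was testable only through the vehicle group. With GO-203 1 of 6 passed, AGER, which was higher (log2 1.19 ± 0.41, adjusted p = 0.046), and on MYC silencing 4 rose and 1 fell of 6, against 24.1% and 58.5% of all genes.

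Of 18 genes for intracellular partners, 17 were tested in 3D against 2D cells, with 7 higher and 7 lower, against 32% and 31.7% of all genes. On MUC1 silencing 4 were higher and 10 lower of 17, against 30.7% and 31.6% of all genes. With GO-203 1 was higher and 6 lower of 16, against 11.1% and 12.9%, and on MYC silencing 7 were higher and 4 lower of 17, against 30.3% and 28.1%. AHNAK, a giant scaffold bound by the S100A10 and annexin A2 complex, rose in 3D cells (log2 2.41 ± 0.10, adjusted p = 2.3e-12). ANXA6, a membrane-binding annexin, fell there (log2 -2.02 ± 0.09, adjusted p = 4.72e-12), as did SYT1 (log2 -1.64 ± 0.09), which rose on MYC silencing (log2 2.16 ± 0.15). MYH9, the myosin heavy chain bound by S100A4, was lower in 3D cells (log2 -0.93 ± 0.06, adjusted p = 1.08e-09) and higher on MUC1 silencing (log2 0.27 ± 0.05, adjusted p = 4.41e-05), in each case opposite to S100A4. CACYBP, the partner of S100A6, fell on MYC silencing (log2 -0.76 ± 0.08, adjusted p = 1.94e-05), on MUC1 silencing (log2 -0.36 ± 0.05) and with GO-203 (log2 -0.25 ± 0.06), and was higher in 3D cells (log2 0.19 ± 0.06, adjusted p = 0.0182).

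The epidermal differentiation genes that flank or accompany the S100 cluster were mostly silent, and 15 of 20 were listed. On MUC1 silencing 6 of the 8 tested were higher and 1 lower, where 30.7% and 31.6% of all genes were. KRT6A, KRT6B, PI3, SPRR2D and HRNR were near 0 with vehicle and testable only through the DOX group, and 7 of the 15 listed genes were not tested, so the count does not describe the list as a whole. KRT6A, a keratin of stressed epidermis, went from 0.0783, 0.0941 and 0 CPM with vehicle to 12.1, 10.6 and 8.33 CPM with DOX. It rose also with GO-203, from 1.06, 1.07 and 1.13 CPM to 7.28, 7.89 and 7.01 CPM (log2 2.79 ± 0.16, adjusted p = 5.14e-11). KRT6A was thus higher in the comparisons in which S100A8 rose, and it also passed as higher in 3D cells (adjusted p = 2.88e-07) and on MYC silencing (adjusted p = 1.02e-05). There it had 0 to 2 counts in 2D and 4 to 9 in tet-MYCshRNA vehicle libraries, so it was testable only through the higher group and its fitted folds are not sizes. The others that rose on MUC1 silencing were KRT6B, PI3 (log2 2.87 ± 0.45), SPRR2D (log2 2.48 ± 0.58), FLG (log2 1.99 ± 0.28) and HRNR (log2 1.74 ± 0.56), while KRT10 fell (log2 -1.01 ± 0.11). The summed level of the 15 genes went from 9.63 to 10.1 CPM with vehicle to 16.4 to 22.2 CPM with DOX. KRT6A alone held 8.33 to 12.1 CPM of the DOX sums, and the mean of KRT10 went from 8.58 to 4.18 CPM. The sum thus does not describe the list as a whole either. In the other comparisons KRT6A alone passed as higher, of 4 genes tested in 3D cells, 3 with GO-203 and 6 on MYC silencing, and TGM1 fell on MYC silencing (log2 -1.06 ± 0.35, adjusted p = 0.0277).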

How the data were processed

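Raw read counts per gene were deposited by the authors for 21 libraries: stranded paired-end reads were aligned to GRCh38 with STAR and assigned to genes with featureCounts. The submitters' processing notes name STAR 2.7.3a and CASAVA 1.8.2, while the study's methods name a different STAR release. The annotation release, strand setting and treatment of multi-mapping reads are not given in the sources used here. Genes without a value in a block of libraries (4952 to 7587 genes) were read as 0, since no listed gene there had a total of 0.

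In R 4.3.3 each comparison was fitted on its own 6 libraries with edgeR 4.0.16 (filterByExpr, TMM factors, quasi-likelihood test, Benjamini-Hochberg over all genes tested, threshold 0.1), and differences of effects over 12 libraries. The study used DESeq2, run here (1.42.0) as an alternative. Library totals of 38026597 to 99751717 make counting error small for the abundant members, but S100A8, S100A9 and S100A16 had few counts and S100A3 as few as 16 in a library. Levels are CPM on TMM factors over 21 libraries. The 95% intervals of fold changes are from the edgeR fit and those of count ratios are exact for counting error. Correlations used log2(CPM + 0.1). Gene positions are from GENCODE release 44, promoters from RefSeq GRCh38.p14. All replicate pairs differed by more than sampling noise (chi-square per degree of freedom 4.36 to 52.8). The fits were tested on simulated counts. The 10 members, the gene lists and the rule for naming genes (all members; list genes past the threshold with an absolute log2 fold change above 1.5, and direct partners) were chosen with earlier results of these data known. S100A5, S100P and S100A1 were named with the family list, and several other list genes below that size were named after their values were seen. Alternatives tried were DESeq2, RLE factors, library size alone, a replicate block, a fit of all 21 libraries, no filter on low counts, a stricter filter (10 counts or more in each library), other thresholds, the tet-MUC1shRNA vehicle mammospheres in place of 3D cells, and leaving out each replicate. A limit of 6 counts for a group at 0 was added after the data were seen. The result of 1 list of marker genes is not reported here.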

Additional observations from a re-analysis of the deposited data

Results flagged for a closer look

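The effects of MUC1 and MYC silencing on the same gene differed for 8 S100 members by the test of the difference itself (MUC1 effect minus MYC effect, log2, edgeR quasi-likelihood). The differences were -4.66 for S100A3, -3.46 for S100A4, -1.79 for S100A6, -1.21 for S100A13, -0.87 for S100A10 and 0.54 for S100A11. The fitted differences of 6.95 for S100A8 and 9.90 for S100A9 depend on how groups at or near 0 counts are treated and are not sizes. Without tet-MYCshRNA vehicle replicate 1, which held the only 2 counts of its group, the S100A8 difference was 4.61 and no longer passed (adjusted p = 0.9999).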

How the results depend on the processing

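Of 769 values of single members under the alternatives, 717 kept their direction and their side of the threshold. The direction turned for 2 of the 37 differences that had passed, S100A10 (-0.49) and S100A11 (-0.47) in 3D against 2D cells with the tet-MUC1shRNA vehicle mammospheres in place of the 3D cells. The other reversals concern estimates near 0. For S100A2 in 3D cells they were 0.0027 by DESeq2, 0.0026 with RLE factors, 0.0016 without the filter, 0.0020 in one fit of 21 libraries and 0.014 with the replicate block. For S100A2 they were -0.016 on MUC1 silencing in one fit of 21 libraries and 0.081 for the difference of silencing effects with library size alone. For S100A10 with GO-203 they were -0.0011 by DESeq2, -0.0013 with RLE factors, -0.0054 without the filter and -0.026 in one fit of 21 libraries. With single libraries left out, S100A2 ran from -0.088 to 0.19 in 3D cells, -0.083 to 0.14 on MUC1 silencing and -0.24 to 0.015 for the difference of silencing effects, S100A6 with GO-203 from -0.0098 to 0.083, S100A10 with GO-203 from -0.033 to 0.047 and S100A11 on MYC silencing from -0.041 to 0.12. The number of members called with an absolute log2 fold change above 1.5 as well was 3 in 3D cells, 3 on MUC1 silencing, 1 with GO-203, 2 on MYC silencing, 5 for MUC1 minus MYC and 3 for GO-203 minus MUC1. The GO-203 count was 1 by DESeq2, without the filter, in one fit of 21 libraries and at an adjusted p below 0.05, and ran from 1 to 2 with single libraries left out; with at least 10 counts in each library S100A8 was not tested and S100A4 passed. With at least 10 counts in every library 5 members were called for GO-203 minus MUC1, as S100A8 and S100A9 were not tested there and S100A10 did not pass. With library size alone 6 of the group means moved by 1 SD or more, and per kilobase 4 members changed rank in 3D cells.

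Replicate numbers in the labels were tried as a pairing. Same-numbered libraries did not deviate together (mean correlation -0.02 in 3D against 2D, 0.02 for MUC1, 0.04 for GO-203 and -0.08 for MYC), although with GO-203 6 of 6 libraries correlated best with their own number, against 1, 4 and 0 of 6 in the 3D against 2D, MUC1 and MYC comparisons. With the replicate block 7, 7, 3 and 5 members were called in 3D against 2D, MUC1 silencing, GO-203 and MYC silencing, and 8 in both differences of effects; the additional GO-203 call was S100A4 (0.18, adjusted p = 0.0784).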
